A study of Arabidopsis thaliana with 43 samples.

Results

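The transcripts of 10 heat stress transcription factor genes of class A were followed in leaves of Arabidopsis thaliana through a heat acclimation and heat shock regime. They are HSFA1A (AT4G17750), HSFA1B (AT5G16820), HSFA1D (AT1G32330), HSFA1E (AT3G02990), HSFA2 (AT2G26150), HSFA3 (AT5G03720), HSFA6A (AT5G43840), HSFA6B (AT3G22830), HSFA7A (AT3G51910) and HSFA7B (AT3G63350). They are defined by locus ID alone, and the rule uses no measured value. All 10 were found among the 33602 loci counted, and all 10 were among the 20980 loci that passed the filter on low counts.

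Plates of about 80 seedlings of the Col-0 accession, wild type throughout, were kept at 22 °C under 16 h days. T1 was taken on day 12 as the light came on, T2 at 3 h of a 6 h rise in temperature (38 °C), T3 at its end (45 °C) and T4 after a further 90 min at 45 °C. T5 and T6 are acclimated seedlings, which had gone through that rise, 2 and 4 days later at 22 °C. T7 and T8 are acclimated seedlings at the end of a direct 90 min shock at 45 °C on day 16 and 2 days after it, at 22 °C. T10 and T11 are seedlings without acclimation, taken when the same shock ended and 2 days after it, and T9 is their state before it, never heated. For T7, T8 and T9 the written protocol is not of 1 piece, and the labels for time point and sampling temperature were followed. Each time point had n = 2 plates, 1 in each of 2 batches, and the leaves of a plate were divided between 2 tubes whose counts were summed. T1 was taken at 0 h of light, T7 and T10 at 9 h, and T4, T5, T6, T8, T9 and T11 at 7.5 h, so a shock differs from its baseline also by 1.5 h of the day. All plates hold pooled seedlings, and in such bulk samples fewer cells of a type and less RNA per cell cannot be told apart.

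Heat stress factors bind heat shock elements, inverted repeats of the bases GAA, and switch on genes for chaperones and further factors. In Arabidopsis the HSFA1 proteins are present before the heat, held inactive by chaperones, and act first when proteins unfold. HSFA2, HSFA7A and HSFA7B are themselves made upon heat under HSFA1 control, HSFA3 is switched on through the drought and heat factor DREB2A, and HSFA6A and HSFA6B are known mainly from salt, drought and abscisic acid responses. HSFA2, with HSFA3, is known for keeping heat-responsive genes active for days after a heat episode.

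Libraries held 6355953 to 21304864 gene counts (median 9532451), and 22 plates were tested. Levels are given in TMM-CPM, the CPM of a library size scaled by edgeR's trimmed mean of M-values, and a log2 change is given with the standard error of the fit. The words rose and fell, and called, stand for an adjusted p under 0.05 in edgeR's quasi-likelihood test, Benjamini-Hochberg adjusted over all 20980 genes. Plates said not to overlap are a description only, and the share of all genes without overlap was not taken. Of the members, 6 of 10 did not overlap between T9 and T1, where 0 were called. In batch 2 the plates of T5 and T6 stood apart from those of batch 1, unequally in their tubes: HSFA2 was at 90.6 and 19.7 TMM-CPM in the tubes of T5 and at 37.7 and 18.22 TMM-CPM in those of T6, against 0.576 to 1.82 TMM-CPM in the tubes of batch 1 at T5 and T6. The 6 leaf mesophyll markers, among them the Rubisco subunit gene RBCS1A, were detected at every time point. Their summed level ran from 5744 to 185903 TMM-CPM, while 6 root markers summed to at most 51.0 TMM-CPM and 3 shoot apex markers to at most 14.5 TMM-CPM. Scaling bears on changes here: between T4 and T9 the median log2 change of all genes was -0.30 with TMM and -2.02 with library size scaling. Where that choice turns or ends a call of a member, it is said beside the value.

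The letters before the gene starts differ among the 10 genes, and the 4 windows that hold a heat shock element are shown. HSFA3 and HSFA1D, without an element, were called higher at T4 against T9, HSFA1D not with library size scaling. HSFA1E, with an element, was not called at T10 against T9. A link between elements and calls was not tested. Each window shown is the 250 bases up to the annotated gene start, read 5′ to 3′ on the gene's strand from the RefSeq genome TAIR10.1. Heat shock elements are in capitals.
HSFA2, chr2:11135374-11135623, + strand: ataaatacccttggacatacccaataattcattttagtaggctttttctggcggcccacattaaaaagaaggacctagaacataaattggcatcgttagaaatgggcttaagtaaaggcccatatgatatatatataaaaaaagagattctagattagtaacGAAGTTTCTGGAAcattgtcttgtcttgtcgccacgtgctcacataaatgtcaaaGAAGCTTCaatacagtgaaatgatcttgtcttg
HSFA7A, chr3:19264891-19265140, + strand: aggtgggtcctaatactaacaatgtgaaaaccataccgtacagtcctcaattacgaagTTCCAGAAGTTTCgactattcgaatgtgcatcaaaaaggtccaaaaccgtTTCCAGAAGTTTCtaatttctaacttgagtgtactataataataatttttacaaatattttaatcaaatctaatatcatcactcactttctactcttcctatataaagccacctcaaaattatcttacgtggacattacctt
HSFA7B, chr3:23398986-23399235, + strand: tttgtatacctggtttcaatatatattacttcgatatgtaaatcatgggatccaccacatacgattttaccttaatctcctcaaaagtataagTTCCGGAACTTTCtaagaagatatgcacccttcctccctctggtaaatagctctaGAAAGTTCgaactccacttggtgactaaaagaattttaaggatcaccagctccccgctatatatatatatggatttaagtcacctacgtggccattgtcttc
HSFA1E, chr3:673178-673427, + strand: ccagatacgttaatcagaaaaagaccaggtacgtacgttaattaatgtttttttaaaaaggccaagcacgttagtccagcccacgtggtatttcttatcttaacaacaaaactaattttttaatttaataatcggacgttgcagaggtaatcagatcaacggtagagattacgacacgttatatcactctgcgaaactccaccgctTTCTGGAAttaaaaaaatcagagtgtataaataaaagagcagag

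A heat shock element of 3 units (GAANNTTCNNGAA or TTCNNGAANNTTC, both strands) was found 1 time in HSFA2, at -88 to -76 from the gene start, 2 times in HSFA7A, at -192 to -180 and -142 to -130, and 1 time in HSFA7B, at -157 to -145. Of 27443 windows of the same length before annotated genes, 0.386% hold such an element. Of these windows 16.1% hold an element of 2 units (GAANNTTC or TTCNNGAA), which overlaps the 3-unit form; outside it, 1 more was found in HSFA2, 1 in HSFA7B and 1 in HSFA1E, at -44 to -37. No heat shock element of these letters was found before HSFA1A, HSFA1B, HSFA1D, HSFA3, HSFA6A or HSFA6B. The dehydration-responsive element (ACCGAC or GCCGAC, both strands), the letters that DREB2A binds, was found before HSFA1A alone among the 10, and in 7.09% of all windows. The abscisic acid-responsive element (ACGTGG or ACGTGT, both strands) was found before HSFA1B, HSFA1D, HSFA1E, HSFA2, HSFA7A and HSFA7B, and in 16.0% of all windows. These matches describe the letters and not binding.

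**Figure D1:**
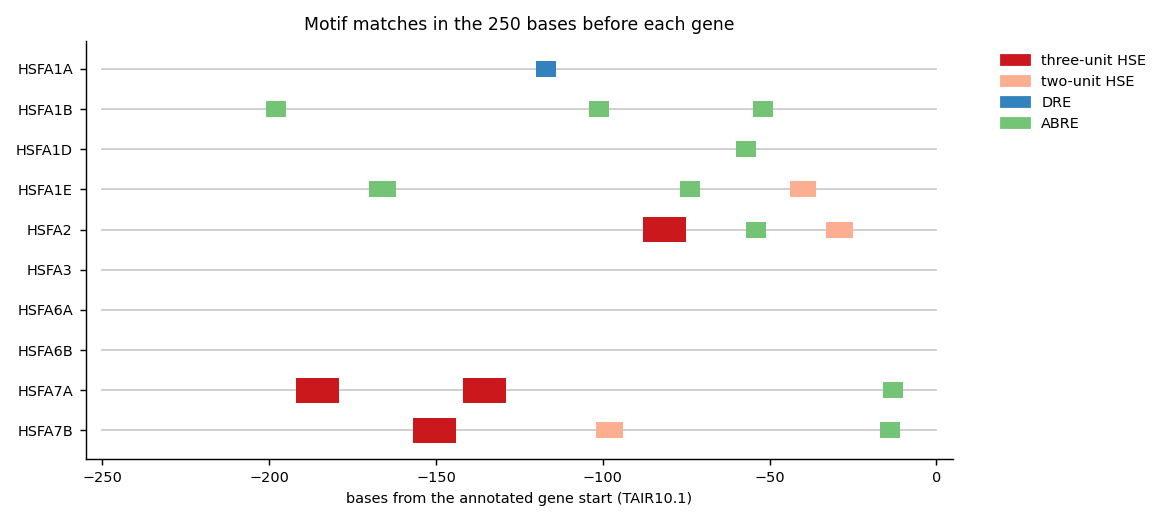
Matches to heat shock elements (HSE) of 3 and 2 units, dehydration-responsive elements (DRE) and abscisic acid-responsive elements (ABRE) in the 250 bases before each gene, against the distance in bases from the annotated gene start. Elements of 3 units lie before HSFA2, HSFA7A and HSFA7B, where the 2-unit matches within them are covered, and HSFA3, HSFA6A and HSFA6B have no match.

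Before any heat (T1, T9) the HSFA1 genes made up most of the transcript of the 10 genes, and in leaves sampled hot HSFA2 did. To compare genes, levels were divided by exon length (TMM-RPKM), and each gene's share of the sum over the 10 genes was taken in each plate. The 4 HSFA1 genes held 64.6% and 77.8% of that sum in the T1 plates, 3.69% and 2.59% at T2, 0.528% and 0.843% at T3 and 0.841% and 1.010% at T4. At T9 they held 76.1% and 80.7%. HSFA2 held 7.86% and 3.57% at T1, 79.3% and 83.0% at T2, 87.8% and 89.9% at T3, and 85.6% and 88.9% at T4. Of the transcripts of never-heated leaves at T9, HSFA2 held 2.104% and 4.10%. Back at 22 °C the plates were mixed: the HSFA1 genes held 81.9% and 30.3% at T5 and 87.5% and 42.3% at T6, in batch 1 and batch 2, and HSFA2 held 4.73% and 59.4% at T5 and 2.42% and 42.8% at T6. 2 days after the shock the HSFA1 genes held 21.03% and 22.3% at T8, against 0.991% and 1.96% at T11. After the shock HSFA7A was the next in share: it held 17.805% and 18.5% at T7 and 26.0% and 32.3% at T10, against 1.71% and 2.83% at T4, where HSFA7B was ahead of it with 11.4% and 6.78%. The 2 batches gave the same first gene, HSFA2, in all heated plates of T2, T3, T4, T7 and T10, and in T8 and T11.

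**Figure D2:**
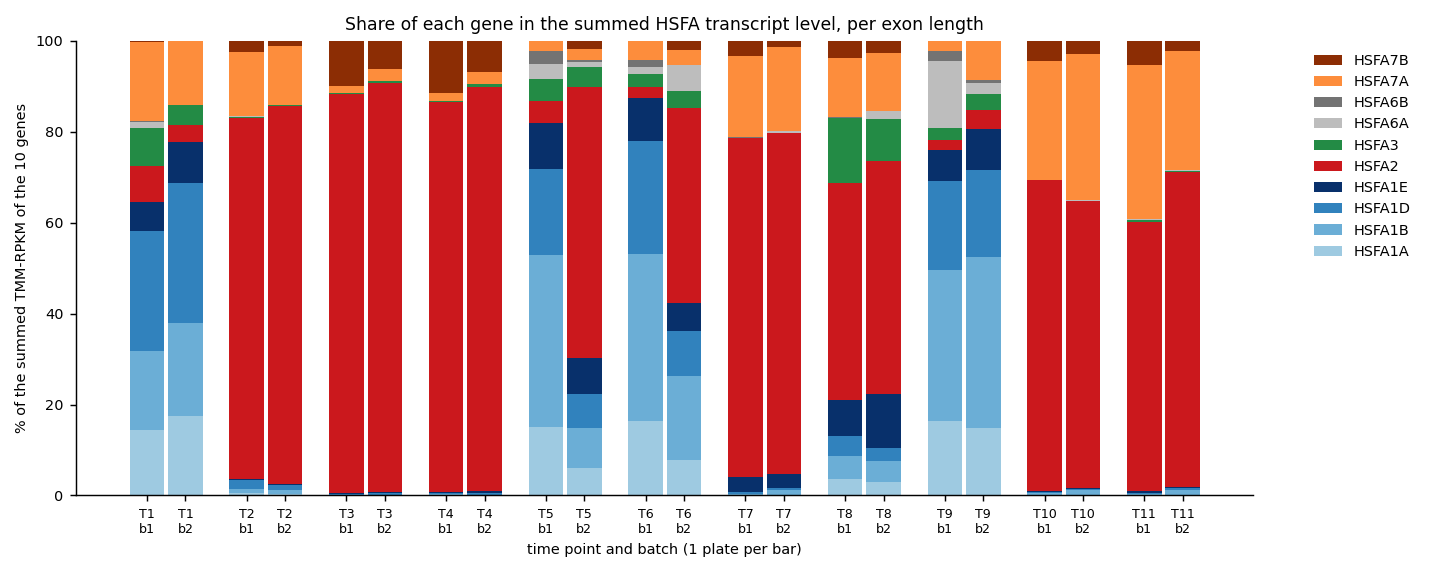
Stacked bars of the share of each gene in the summed length-scaled level (TMM-RPKM) of the 10 genes, in percent, 1 bar per plate, time points left to right with batch 1 (b1) before batch 2 (b2). The blue HSFA1 segments hold 64.6% and 77.8% at T1 and the red HSFA2 segment holds 87.8% and 89.9% at T3.

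In never-heated leaves at T9, the order per length was HSFA1B, HSFA1D, HSFA1A, HSFA6A, HSFA1E, HSFA7A, HSFA3, HSFA2, HSFA6B and HSFA7B. HSFA1B averaged 6.37, HSFA1D 3.503 and HSFA1A 2.84 TMM-RPKM, and the plates of HSFA1D (3.77 and 3.24) and HSFA1A (3.18 and 2.51 TMM-RPKM) did not overlap. HSFA6A (mean 1.64 TMM-RPKM) had 2.86 and 0.409 TMM-RPKM in the plates and overlapped each of HSFA1E, HSFA7A, HSFA3 and HSFA2, the last with a mean of 0.549 TMM-RPKM. HSFA7B had 0 counts in both plates of T9, which allows up to 0.0430 TMM-CPM for 3 counts over both. At the end of the first rise, T3, the order was HSFA2 (mean 2914 TMM-RPKM), HSFA7B (269), HSFA7A (66.1), HSFA3 (10.2), HSFA1E (8.97), HSFA1D (7.07), HSFA1B (4.44) and HSFA1A (1.75), with HSFA6A and HSFA6B at 0 counts. There the plates of HSFA3 (9.37 and 10.9 TMM-RPKM) lay within those of HSFA1E (6.87 and 11.1 TMM-RPKM), so that these neighbours did not differ beyond their spread.

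**Figure D3:**
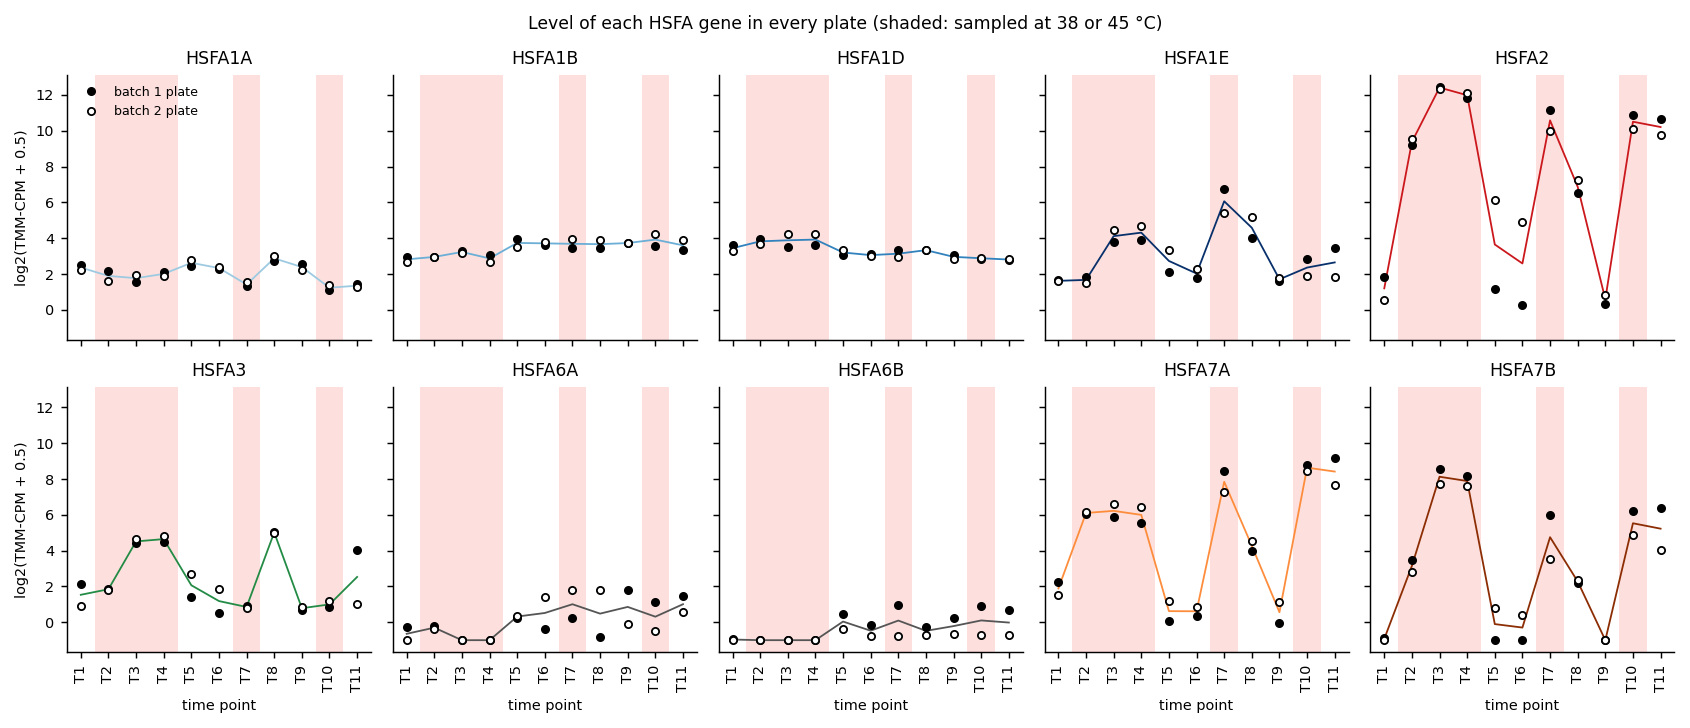
Level of each gene in every plate as log2(TMM-CPM + 0.5), time points left to right, filled points batch 1 and open points batch 2, lines through the means, shading where leaves were sampled at 38 or 45 °C. HSFA2 lies between 0.720 TMM-CPM (a T6 plate) and 5670 TMM-CPM (a T3 plate), HSFA1B and HSFA1D stay between 5.87 and 18.7 TMM-CPM, and HSFA3 peaks at T3, T4 and T8 but not at T7 or T10.

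At 38 °C, 3 h into the first rise, the heat-made factors HSFA2, HSFA7A and HSFA7B rose, and the HSFA1 genes, HSFA3, HSFA6A and HSFA6B were not called. HSFA2, the factor that sustains the heat response, had 598 and 743 TMM-CPM at T2, against 3.14 and 0.957 TMM-CPM at T1. Both T2 plates lay far above both T1 plates, and the change was 8.22 ± 1.69 on the log2 scale (adjusted p = 0.0148). HSFA7A, a factor near HSFA2 in the class A family, had 65.6 and 70.9 TMM-CPM at T2, against 4.31 and 2.35 TMM-CPM at T1 (log2 change 4.32 ± 0.71, adjusted p = 0.00383). HSFA7B, its close paralog, had 355 counts at T2, against 2 counts at T1, a ratio of 255 with a 95% counting interval of 70.1 to 2116 that leaves out the spread between plates (adjusted p = 0.0270). In all, 3 of 10 members rose and 0 fell, where 2.01% of all genes rose and 0.744% fell (1.37% and 2.85% with library size scaling), and the members' median log2 change was 0.30, against -0.03 over all genes. The call of HSFA2 was lost without either T1 plate (adjusted p up to 0.140), as was that of HSFA7A (up to 0.0626), and that of HSFA7B whichever plate was left out (0.0857 to 0.288). T2 and T1 also differ by 3 h of the day.

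Of the 23 tested genes reported as targets of these factors, 20 rose and 0 fell at T2 (median log2 change 8.52). Among them the small heat shock protein genes HSP17.4 (log2 change 10.80 ± 1.73, adjusted p = 0.00318) and HSP17.6C (9.68 ± 1.56, adjusted p = 0.00319) and the co-chaperone gene BAG6 (7.59 ± 0.86, adjusted p = 0.000441) had the smallest p with ROF2. Of 16 upstream regulators and partners 5 rose and 0 fell (median 1.47), among them MBF1C (7.08 ± 1.25, adjusted p = 0.00558), a coactivator that heat also induces. Of 8 tested other heat stress factors 3 rose and 0 fell (median -0.16): the repressor genes HSFB2B (3.49 ± 0.60, adjusted p = 0.00462) and HSFB2A (3.60 ± 0.68, adjusted p = 0.00920), and HSFB4 (1.46 ± 0.28, adjusted p = 0.00927). The target list shares 5 genes with the list of regulators and 2 with that of other factors.

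Between 38 °C and 45 °C the order of events among the members separated: HSFA3 and HSFA1E rose now and HSFA7B rose again, while HSFA7A was not called. HSFA3, which acts downstream of DREB2A, had 20.7 and 24.2 TMM-CPM at T3, against 3.19 and 3.00 TMM-CPM at T2 (log2 change 2.86 ± 0.82, adjusted p = 0.0202). HSFA1E had 13.3 and 21.4 TMM-CPM at T3, against 3.08 and 2.35 TMM-CPM at T2 (2.68 ± 0.67, adjusted p = 0.0105). HSFA7B had 371 and 210 TMM-CPM at T3, against 10.8 and 6.43 TMM-CPM at T2 (5.06 ± 1.19, adjusted p = 0.00832). In each of these the plates did not overlap. HSFA2 had 5670 and 5262 TMM-CPM at T3, against 598 and 743 TMM-CPM at T2, and with a log2 change of 3.06 ± 1.32 it was not called (adjusted p = 0.0983), nor was HSFA7A (57.3 and 95.9 TMM-CPM at T3, against 65.6 and 70.9 TMM-CPM at T2, overlapping). DREB2A had the smallest p of the regulators here (5.14 ± 0.83, adjusted p = 0.000933). At T7 against T6 DREB2A also rose (6.11 ± 0.88) while HSFA3 was not called (-0.60 ± 0.85), and a link between them was not tested.

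In this step 3 of 10 members rose and 0 fell, where 11.8% of all genes rose and 14.5% fell (1.56% and 54.2% with library size scaling), and the members' median was 0.31, against -0.17 over all genes. Of the regulators 5 of 16 rose and 0 fell (median 2.09). Of the targets 11 of 23 rose and 0 fell (median 3.47), with HSP18.2 (8.10 ± 1.27, adjusted p = 0.000776) and the chloroplast chaperone HSP21 (7.26 ± 1.29, adjusted p = 0.00169) named by p, and of the other factors 0 of 8 rose and 1 fell (median -0.07), HSFC1 (-3.91 ± 0.79, adjusted p = 0.00345). With library size scaling HSFA1E (1.56, adjusted p = 0.0500248) and HSFA3 (1.73, adjusted p = 0.0777) were not called, and HSFA1D, 0.11 with TMM, stood at -1.01 (adjusted p = 0.0384). HSFA3 lost its call whichever plate was left out (0.0618 to 0.119), HSFA1E without either T2 plate or the T3 plate of batch 2 (0.0606 to 0.0788), and HSFA7B without either T2 plate (0.0637 to 0.0767).

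During the 90 min at 45 °C that followed, 0 of 10 members were called by edgeR and 0 by DESeq2. By limma on the authors' log2 values, which lack HSFA6B, 0 were called. In edgeR 0 had an unadjusted p under 0.05. Over all genes 0% were called higher and 0% lower, with 1402 genes at an unadjusted p under 0.05. HSFA2 had 3708 and 4447 TMM-CPM at T4, against 5670 and 5262 TMM-CPM at T3, both T4 plates below both T3 plates (log2 change -0.45 ± 1.22). In a fit of the 4 plates alone HSFA2 was called lower. For the others the T4 and T3 plates overlapped, except for HSFA1B, which had 7.91 and 5.89 TMM-CPM at T4, against 9.20 and 8.63 TMM-CPM at T3, and HSFA6A and HSFA6B, which had 0 counts at both. The members' median was -0.10, against 0.00 over all genes, and 0 of 16 regulators, 0 of 23 targets and 0 of 8 other factors were called.

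Set against never-heated leaves of the same hour but of day 16, leaves after the whole first heat treatment had 6 of 10 members higher and 2 lower. HSFA2 averaged 4077 ± 523 TMM-CPM at T4 and 1.03 ± 0.378 TMM-CPM at T9 (SD, n = 2 each), a log2 change of 11.97 ± 1.94 (adjusted p = 0.000290). HSFA7A averaged 66.6 ± 29.4 TMM-CPM at T4 and 1.10 ± 0.859 TMM-CPM at T9 (5.92 ± 0.78, adjusted p = 6.1e-05). HSFA7B had 286 and 196 TMM-CPM at T4, against 0 counts at T9, which makes it at least 5405-fold higher against a floor of 3 counts over both T9 plates (adjusted p = 0.000128). HSFA3 averaged 24.7 ± 4.53 TMM-CPM at T4 and 1.23 ± 0.138 TMM-CPM at T9 (4.33 ± 0.88, adjusted p = 0.00143), and HSFA1E 20.1 ± 7.82 and 2.77 ± 0.249 TMM-CPM (2.86 ± 0.67, adjusted p = 0.00345). These 5 calls held whichever plate was left out, although with library size scaling HSFA1E was not called (1.16, adjusted p = 0.10001).

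The remaining calls between T4 and T9 were small or rested on few counts. HSFA1D had 11.8 and 18.4 TMM-CPM at T4, against 7.87 and 6.76 TMM-CPM at T9 (1.05 ± 0.30, adjusted p = 0.0112), but was at -0.66 with library size scaling (adjusted p = 0.128). Relative to the median of all genes its change was 1.34 with TMM and 1.36 with library size scaling. HSFA1B had 7.91 and 5.89 TMM-CPM at T4, against 12.9 and 12.7 TMM-CPM at T9 (-0.90 ± 0.32, adjusted p = 0.0349), and -0.60 relative to the median. It was not called with DESeq2's size factors in edgeR (adjusted p = 0.0507), in a fit of the 4 plates alone (adjusted p = 0.0949) or by limma on the authors' log2 values (adjusted p = 0.121). HSFA6B, linked to abscisic acid, had 0 counts at T4, against 22 and 5 counts at T9, at least 1.56-fold lower (adjusted p = 0.0402), and HSFA6A had 0 counts at T4, against 99 and 16 counts at T9, at least 6.62-fold lower but not called (adjusted p = 0.127), though it was with library size scaling (adjusted p = 0.0212) and by DESeq2 (adjusted p = 0.0214). Over all genes 18.7% rose and 24.2% fell (3.38% and 74.8% with library size scaling), and the members' median was 1.96, against -0.30 over all genes. The call of HSFA1D was lost without the batch 2 plate of T4 or of T9 (up to 0.168), that of HSFA1B without the batch 2 plate of T4 or either T9 plate (up to 0.260), and that of HSFA6B whichever plate was left out (0.0759 to 0.343).

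Of the targets 23 of 23 rose between T4 and T9 (median 12.56), of the regulators 10 of 16 rose and 1 fell (median 2.80), and of the other factors 3 of 8 rose and 3 fell (median -0.27). HSFA8 (-6.78 ± 0.97, adjusted p = 0.000113) and HSFC1 (-3.20 ± 0.73, adjusted p = 0.00312) had the smallest p of that list together with HSFB2B (4.61 ± 0.63) and HSFB2A (4.95 ± 0.73). The summed leaf mesophyll markers also stood higher, at 185903 and 136892 TMM-CPM at T4, against 43339 and 36704 TMM-CPM at T9. Most of that difference lies in the TMM factors, 0.361 and 0.448 at T4 against 1.350 and 1.345 at T9, and with library size scaling it is much smaller. The part of these markers in the members' values was not tested.

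By 2 and 4 days after acclimation 0 of 10 members were called against never-heated leaves by edgeR in the fit of all plates. By limma on the authors' log2 values, which lack HSFA6B, 0 were called. By DESeq2 1 was called at T5, HSFA2, where 283 of 20230 genes were higher and 225 lower, and 0 at T6. A fit of the T6 and T9 plates alone called HSFA2, where 397 of 19828 genes were higher and 347 lower. Its log2 change from T9 to T6 was -0.05 within batch 1 and 4.05 within batch 2. At an unadjusted p under 0.05, 3 members stood apart at T5 and 1 at T6, as did 2221 and 1333 of all 20980 genes. HSFA2 had 1.77 and 69.1 TMM-CPM at T5, and 0.720 and 29.3 TMM-CPM at T6, against 0.763 and 1.297 TMM-CPM at T9. The batch 1 plates were near those of T9 and the batch 2 plates far above them (T5 log2 change 4.95 ± 1.49, adjusted p = 0.193; T6 3.71 ± 1.43, adjusted p = 0.692). HSFA7B showed the same split, with 0 counts in batch 1 and 45 counts at T5 and 20 counts at T6 in batch 2, against 0 counts in both T9 plates. HSFA3 had 2.18 and 6.05 TMM-CPM at T5, and 0.950 and 3.06 TMM-CPM at T6, against 1.13 and 1.32 TMM-CPM at T9. HSFA7A was at 0.535 to 1.79 TMM-CPM in all plates of T5 and T6, against 0.488 and 1.70 TMM-CPM at T9. Over all genes 0.224% rose and 0.219% fell at T5, and 0.0143% rose and 0.00477% fell at T6 (0.0238% and 0% with library size scaling). The members' median was 0.48 at T5 and 0.04 at T6, against 0.01 over all genes in both. Of the targets 7 of 23 rose and 0 fell at T5 (median 5.23) and 0 of 23 were called at T6 (median 4.001), and of the regulators 0 of 16 and of the other factors 0 of 8 were called at either. Among the targets at T5 were HSP21 (9.05 ± 1.44, adjusted p = 0.0177) and HSP22.0 (9.10 ± 1.46, adjusted p = 0.0177), a chaperone of the endoplasmic reticulum.

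The shock in acclimated leaves raised HSFA2, HSFA7A, HSFA7B and HSFA1E. HSFA1E, 1 of the 4 HSFA1 genes, had 106 and 41.4 TMM-CPM at T7, against 2.95 and 4.34 TMM-CPM at T6, its highest level of the 11 time points (log2 change 4.35 ± 0.70, adjusted p = 0.00584). HSFA7A had 342 and 154 TMM-CPM at T7, against 0.786 and 1.32 TMM-CPM at T6 (7.93 ± 0.85, adjusted p = 0.000743). HSFA2 had 2322 and 1012 TMM-CPM at T7, against 0.720 and 29.3 TMM-CPM at T6 (7.06 ± 1.62, adjusted p = 0.0223). HSFA7B had 61.9 and 11.1 TMM-CPM at T7, against 0 and 0.827 TMM-CPM at T6 (6.21 ± 1.38, adjusted p = 0.0211). In these 4 genes every T7 plate was above every T6 plate. HSFA1A had 1.97 and 2.39 TMM-CPM at T7, against 4.39 and 4.72 TMM-CPM at T6, and was not called (-1.06 ± 0.32, adjusted p = 0.0551), though it was with library size scaling (-1.70, adjusted p = 0.0142) and by DESeq2 (-1.05, adjusted p = 0.0205). HSFA1B and HSFA1D overlapped between T7 and T6, as did HSFA3, HSFA6A and HSFA6B.

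In all, 4 of 10 members rose and 0 fell, where 4.46% of all genes rose and 3.78% fell (1.55% and 19.3% with library size scaling), and the members' median was 0.97, against -0.03 over all genes. The call of HSFA7A held whichever plate was left out. Those of HSFA1E, HSFA2 and HSFA7B were lost without the batch 1 plate of T6 or of T7. In those fits, which leave 1 plate at a time point, calls over all genes also became far fewer. Of the targets 12 of 23 rose and 0 fell (median 4.38), with BAG6 (6.04 ± 0.80, adjusted p = 0.00221) and MIPS2 (5.06 ± 1.01, adjusted p = 0.0133), a gene of inositol synthesis, among the smallest p. Of the regulators 7 of 16 rose and 1 fell (median 1.39): DREB2A rose by 6.11 ± 0.88 (adjusted p = 0.00359) and NF-YA2 fell (-2.04 ± 0.35, adjusted p = 0.00795). Of the other factors 2 of 8 rose and 0 fell (median -0.29), HSFB2B (4.11 ± 0.62) and HSFB2A (4.09 ± 0.70, adjusted p = 0.00730).

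The same shock in non-acclimated leaves raised HSFA2, HSFA7A and HSFA7B and lowered HSFA1A. HSFA7A had 446 and 353 TMM-CPM at T10, against 0.488 and 1.70 TMM-CPM at T9 (log2 change 8.54 ± 0.87, adjusted p = 0.000442). HSFA2 had 1899 and 1116 TMM-CPM at T10, against 0.763 and 1.297 TMM-CPM at T9 (10.60 ± 1.86, adjusted p = 0.00624). HSFA7B had 72.4 and 28.8 TMM-CPM at T10, against 0 counts at T9, at least 1206-fold higher (adjusted p = 0.00502). HSFA1A had 1.64 and 2.102 TMM-CPM at T10, against 5.34 and 4.22 TMM-CPM at T9, without overlap (-1.35 ± 0.32, adjusted p = 0.0242). HSFA1E had 6.70 and 3.18 TMM-CPM at T10, against 2.59 and 2.95 TMM-CPM at T9, without overlap but not called. HSFA3 was low in both, with 1.28 and 1.74 TMM-CPM at T10, against 1.13 and 1.32 TMM-CPM at T9.

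Here 3 of 10 members rose and 1 fell, where 3.76% of all genes rose and 4.46% fell (1.43% and 20.0% with library size scaling), and the members' median was 0.47, against -0.04 over all genes. The call of HSFA7A held whichever plate was left out. That of HSFA2 was lost without either T9 plate (0.0571 and 0.0975), that of HSFA7B without the batch 1 plate of T9 (0.0827), and that of HSFA1A whichever plate was left out (0.0601 to 0.217). Of the targets 22 of 23 rose and 0 fell (median 8.03), of the regulators 7 of 16 rose and 1 fell (median 1.43), with DREB2A (7.78 ± 0.93, adjusted p = 0.00110) and MBF1C (8.37 ± 1.33, adjusted p = 0.00400) first by p with HSP70-4 and ROF2, and of the other factors 2 of 8 rose and 0 fell (median -0.52), HSFB2B (4.43 ± 0.63) and HSFB2A (4.08 ± 0.70, adjusted p = 0.00576). The baselines of the shocks are separate plates, so that T7 against T6 and T10 against T9 share none.

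**Figure D4:**
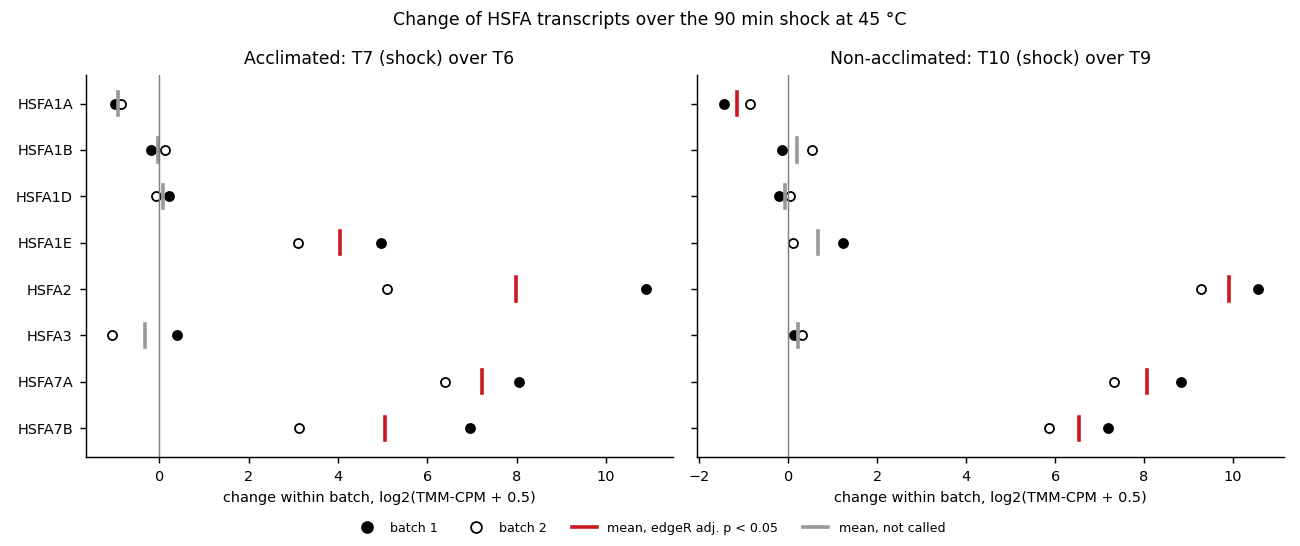
Change over the shock within each batch on the scale log2(TMM-CPM + 0.5), acclimated leaves (T7 over T6) left and non-acclimated leaves (T10 over T9) right, filled points batch 1, open points batch 2, bars the mean of the 2, red where edgeR called the gene; HSFA6A and HSFA6B are not drawn. HSFA1E changed by 4.95 and 3.11 in acclimated leaves and by 1.22 and 0.09 in non-acclimated leaves, and HSFA3 lies near 0 on the right.

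Set directly against non-acclimated leaves at the end of the shock, acclimated leaves had 0 of 10 members called by edgeR. At an unadjusted p under 0.05 there was 1 of 10, HSFA1E, as there were 1636 of all 20980 genes. HSFA1E was also the 1 called by DESeq2, which called 111 of 19728 genes higher and 33 lower. By limma on the authors' log2 values, which lack HSFA6B, 0 were called. HSFA1E had 106 and 41.4 TMM-CPM at T7, against 6.70 and 3.18 TMM-CPM at T10, both T7 plates above both T10 plates, with a log2 change of 3.90 ± 0.68 and an adjusted p of 0.0627. Within batch 1 the change was 3.89 and within batch 2 it was 3.51. It passed with library size scaling (3.99, adjusted p = 0.0453), without the filter on low counts (3.90, adjusted p = 0.0390), by DESeq2 (3.91, adjusted p = 2.21e-06), in a fit of the 4 plates alone (3.86, adjusted p = 3.94e-06) and without the batch 2 plate of T7 (4.48, adjusted p = 0.0431). It did not pass with DESeq2's size factors in edgeR or with the authors' log2 values, and its adjusted p reached 0.905 without the batch 2 plate of T10. HSFA2 averaged 1667 ± 927 TMM-CPM at T7 and 1508 ± 554 TMM-CPM at T10 and HSFA7B 36.5 ± 35.9 and 50.6 ± 30.8 TMM-CPM (SD, n = 2 each), both overlapping. HSFA7A averaged 248 ± 133 TMM-CPM at T7 and 400 ± 66.0 TMM-CPM at T10, without overlap. The fit of the 4 plates alone called HSFA7A as well, where 5.24% of all genes were higher and 4% lower. Over all genes 0.0524% were higher at T7 and 0.00477% lower, and the members' median was 0.06, against 0.01 over all genes. Of the regulators 0 of 16, of the targets 0 of 23 and of the other factors 0 of 8 were called.

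The difference between the shock responses, T7 over T6 less T10 over T9 on the log2 scale, was called for 0 of 10 members by edgeR and by DESeq2. By limma on the authors' log2 values, which lack HSFA6B, it was called for 0. In edgeR 2 members had an unadjusted p under 0.05, HSFA1E and HSFA7B. HSFA1E's response was larger by 3.51 ± 0.90 on the log2 scale in acclimated leaves (unadjusted p = 0.00151, adjusted p = 1.00), 3.74 within batch 1 and 3.02 within batch 2. HSFA7B's differed by -6.89 ± 3.18 (unadjusted p = 0.0481, adjusted p = 1.00), but its T9 plates and a T6 plate had 0 counts, so that this fitted value depends on the prior count. HSFA2's, not under 0.05, was smaller by -3.54 ± 1.85 (adjusted p = 1.00), but 0.34 within batch 1 and -4.19 within batch 2, the batch with the raised T6 plate. Over all genes 0% were called higher and 0% lower, with 189 at an unadjusted p under 0.05, and the medians were -0.02 for the members and 0.01 for all genes.

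Leaves after a direct shock and after a gradual rise were compared, each at the end of 90 min at 45 °C. Of the heat-made factors HSFA7A was called between them, and HSFA2 and HSFA7B were not. HSFA7A had 446 and 353 TMM-CPM after the direct shock in non-acclimated leaves (T10), against 45.9 and 87.4 TMM-CPM after the gradual rise (T4), a log2 change of 2.62 ± 0.66 (adjusted p = 0.00879). HSFA3 had 1.28 and 1.74 TMM-CPM at T10, against 21.5 and 27.9 TMM-CPM at T4 (-4.03 ± 0.88, adjusted p = 0.00371), and this call held whichever plate was left out. HSFA1E had 6.70 and 3.18 TMM-CPM at T10, against 14.6 and 25.7 TMM-CPM at T4 (-2.02 ± 0.65, adjusted p = 0.0312). HSFA7B had 72.4 and 28.8 TMM-CPM at T10, against 286 and 196 TMM-CPM at T4, without overlap but not called (-2.33 ± 1.05, adjusted p = 0.113). HSFA2 had 1899 and 1116 TMM-CPM at T10, against 3708 and 4447 TMM-CPM at T4, without overlap and not called. Thus HSFA7A stood above HSFA7B per length after the direct shock, with means of 345 and 46.8 TMM-RPKM, and below it after the gradual rise, with 57.5 and 223 TMM-RPKM.

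Among the HSFA1 genes HSFA1B was higher at T10, with 11.5 and 18.7 TMM-CPM, against 7.91 and 5.89 TMM-CPM at T4 (1.12 ± 0.32, adjusted p = 0.0182), and HSFA1D lower, with 6.79 and 6.97 TMM-CPM, against 11.8 and 18.4 TMM-CPM at T4 (-1.14 ± 0.30, adjusted p = 0.0115). With library size scaling HSFA1D (-0.08, adjusted p = 0.879) and HSFA1E (-1.01, adjusted p = 0.181) were not called. HSFA6B had 31 and 2 counts at T10, against 0 counts at T4, at least 3.20-fold higher (adjusted p = 0.0288). In all, 3 of 10 members were higher and 3 lower, where 16.2% of all genes were higher and 12.1% lower (51.3% and 2.99% with library size scaling), and the members' median was -1.02, against 0.17 over all genes. Of the targets 0 of 23 were higher and 16 lower (median -4.62), of the regulators 1 of 16 higher and 7 lower (median -2.05), and of the other factors 2 of 8 higher and 1 lower (median 0.23). Calls were lost for HSFA7A without the batch 1 plate of T4 (0.0954), for HSFA1B and HSFA1E without the batch 2 plate of T4 or of T10 (up to 0.178 and 0.218), for HSFA1D without the batch 2 plate of T4 or either T10 plate (up to 0.163), and for HSFA6B without either T4 plate or the batch 1 plate of T10 (up to 0.276). T10 and T4 also differ by 4 days of age and 1.5 h of the day.

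2 days after the shock, back at 22 °C, acclimated leaves had HSFA3, HSFA7A and HSFA1E above their level before it. HSFA3 had 32.4 and 31.4 TMM-CPM at T8, against 0.950 and 3.06 TMM-CPM at T6, its highest level of the 11 time points (log2 change 3.998 ± 0.858, adjusted p = 0.0186). HSFA7A had 15.4 and 22.9 TMM-CPM at T8, against 0.786 and 1.32 TMM-CPM at T6 (4.18 ± 0.73, adjusted p = 0.00718). HSFA1E had 15.5 and 35.5 TMM-CPM at T8, against 2.95 and 4.34 TMM-CPM at T6 (2.80 ± 0.65, adjusted p = 0.0276). HSFA2 had 91.2 and 149.6 TMM-CPM at T8, against 0.720 and 29.3 TMM-CPM at T6, without overlap and not called, and HSFA7B had 4.14 and 4.57 TMM-CPM at T8, against 0 and 0.827 TMM-CPM at T6 (adjusted p = 0.145). With tube 1 of the batch 2 plates of T5 and T6 left out, a choice made after seeing the data, HSFA7B was called as well (log2 change 5.87, adjusted p = 0.0158). In all, 3 of 10 members rose and 0 fell, where 1.37% of all genes rose and 3.27% fell, and the members' median was 1.70, against 0.01 over all genes. More members were called by limma on the authors' log2 values, which lack HSFA6B. There 670 genes were higher and 1089 lower, against 288 and 686 by edgeR. The call of HSFA1E was lost whichever plate was left out (0.0571 to 0.189), that of HSFA3 without either T6 plate or the batch 1 plate of T8 (up to 0.161), and that of HSFA7A without either T6 plate (up to 0.0779).

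Of 16 regulators 2 rose at T8 and 0 fell (median 0.57), DREB2C (3.64 ± 0.92, adjusted p = 0.0380) and DREB2A (2.80 ± 0.75, adjusted p = 0.0466). Of the targets 3 of 23 rose and 0 fell (median 2.80), BAG6 (3.80 ± 0.72, adjusted p = 0.0104), the chloroplast protease gene FTSH6 (4.43 ± 1.11, adjusted p = 0.0367) and DREB2A, which is in both lists, and 0 of 8 other factors were called (median 0.18). The summed leaf mesophyll markers were at 5744 and 13110 TMM-CPM at T8, against 21151 and 39332 TMM-CPM at T6, all 6 detected, and their part in these values was not tested.

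In non-acclimated leaves at the same time HSFA2, HSFA7A and HSFA7B were still far above their level before the shock. HSFA2 had 1623 and 866 TMM-CPM at T11, against 0.763 and 1.297 TMM-CPM at T9 (log2 change 10.33 ± 1.84, adjusted p = 0.00762). HSFA7A had 573 and 203 TMM-CPM at T11, against 0.488 and 1.70 TMM-CPM at T9 (8.53 ± 0.87, adjusted p = 0.000486). HSFA7B had 84.2 and 16.0 TMM-CPM at T11, against 0 counts at T9, at least 1043-fold higher (adjusted p = 0.00628). HSFA1A fell, with 2.22 and 1.90 TMM-CPM at T11, against 5.34 and 4.22 TMM-CPM at T9 (-1.22 ± 0.32, adjusted p = 0.0380). HSFA3 had 16.2 and 1.502 TMM-CPM at T11, against 1.13 and 1.32 TMM-CPM at T9, so that its difference lay in batch 1 (3.36 within batch 1 and 0.13 within batch 2 on the log2 scale, adjusted p = 0.0579). In all, 3 of 10 members rose and 1 fell, where 3.02% of all genes rose and 3.67% fell (1.41% and 6.19% with library size scaling), and the members' median was 0.83, against -0.04 over all genes.

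Of the targets 23 of 23 rose (median 7.43), of the regulators 6 of 16 rose and 1 fell (median 1.63), and of the other factors 2 of 8 rose and 0 fell (median -0.35). The call of HSFA7A held whichever plate was left out. That of HSFA2 was lost without either T9 plate (0.0637 and 0.104), that of HSFA7B without the batch 1 plate of T9 (0.0753), and that of HSFA1A whichever plate was left out (0.0841 to 0.288). The comparison shares its T9 plates with those of T10, T4, T5 and T6 above.

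Set directly against non-acclimated leaves 2 days after the shock, acclimated leaves had lower HSFA7A and HSFA7B and higher HSFA1A and HSFA1E. HSFA7A had 15.4 and 22.9 TMM-CPM at T8, against 573 and 203 TMM-CPM at T11 (log2 change -4.40 ± 0.71, adjusted p = 0.00122). HSFA7B had 4.14 and 4.57 TMM-CPM at T8, against 84.2 and 16.0 TMM-CPM at T11 (-3.29 ± 1.12, adjusted p = 0.0432). HSFA2 had 91.2 and 149.6 TMM-CPM at T8, against 1623 and 866 TMM-CPM at T11, both T8 plates below both T11 plates, and was not called (-3.47 ± 1.35, adjusted p = 0.0690). HSFA1A had 6.14 and 7.66 TMM-CPM at T8, against 2.22 and 1.90 TMM-CPM at T11 (1.74 ± 0.32, adjusted p = 0.00233). HSFA1E had 15.5 and 35.5 TMM-CPM at T8, against 10.4 and 3.12 TMM-CPM at T11 (1.91 ± 0.64, adjusted p = 0.0389). HSFA3 had 32.4 and 31.4 TMM-CPM at T8, against 16.2 and 1.502 TMM-CPM at T11, without overlap and not called (1.87 ± 0.78, adjusted p = 0.0873), though it was with library size scaling (2.43, adjusted p = 0.0338).

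**Figure D5:**
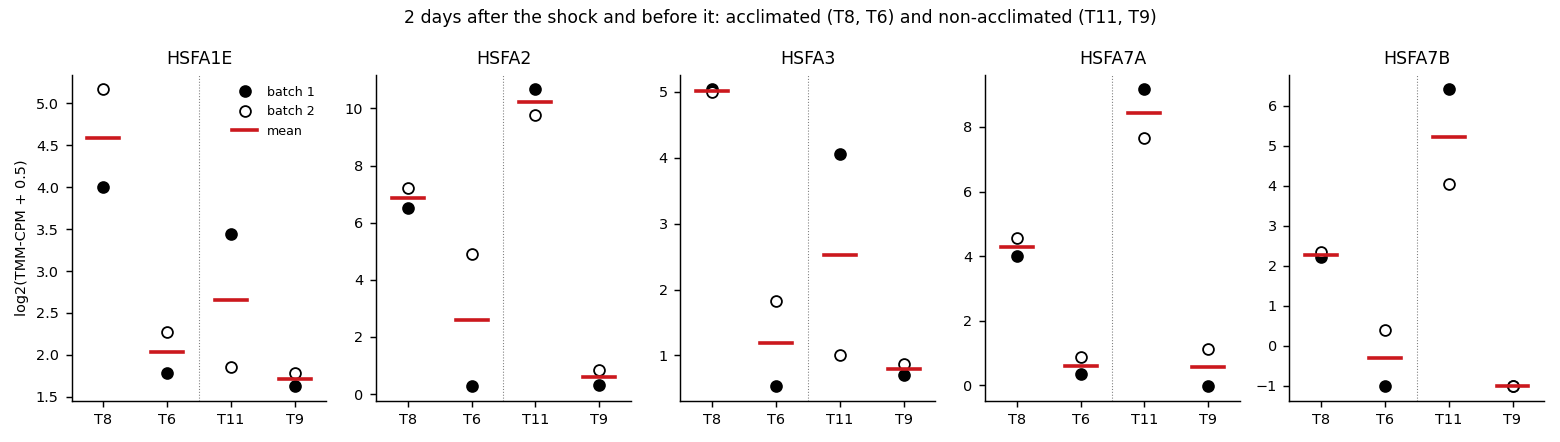
Levels as log2(TMM-CPM + 0.5) of 5 genes 2 days after the shock and before it, in acclimated leaves (T8, T6) and non-acclimated leaves (T11, T9), filled points batch 1, open points batch 2, bars the means; each panel has its own vertical scale. HSFA2 and HSFA7A lie highest at T11, and HSFA3 and HSFA1E at T8.

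In this comparison 2 of 10 members were higher and 2 lower, where 13.9% of all genes were higher and 13.4% lower (25.6% and 5.85% with library size scaling), and the members' median was -0.01, against 0.01 over all genes. The calls of HSFA1A and HSFA7A held whichever plate was left out. That of HSFA1E was lost without either T8 plate or the batch 2 plate of T11 (up to 0.270) and that of HSFA7B without either T8 plate or the batch 1 plate of T11 (up to 0.256), and it was also lost with library size scaling (-2.78, adjusted p = 0.0623) and by DESeq2 (adjusted p = 0.124). In a fit of the 4 plates alone 0 members were called, as were 0 of all 19489 genes tested there. Of the regulators 2 of 16 were higher and 4 lower (median -0.91), with DREB2A lower (-3.05 ± 0.75, adjusted p = 0.00945) and DREB2C higher (3.03 ± 0.91, adjusted p = 0.0247). Of the targets 2 of 23 were higher and 4 lower (median -0.64), among them FTSH6 higher (4.43 ± 1.14, adjusted p = 0.0120) and HSFB2B lower (-2.35 ± 0.57, adjusted p = 0.00896), and of the other factors 1 of 8 was higher and 1 lower (median 0.20). The summed leaf mesophyll markers were at 5744 and 13110 TMM-CPM at T8, against 45883 and 42444 TMM-CPM at T11, and their part in these values was not tested.

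Never-heated leaves of day 16 (T9), set against those of day 12 at the start of light (T1), had 0 of 10 members called by edgeR and by DESeq2. By limma on the authors' log2 values, which lack HSFA6B, 0 were called. At an unadjusted p under 0.05 in edgeR were 3 members and 2307 of all 20980 genes. HSFA1B had 12.9 and 12.7 TMM-CPM at T9, against 7.34 and 5.87 TMM-CPM at T1 (log2 change 0.94 ± 0.30, adjusted p = 0.165). HSFA7A had 0.488 and 1.70 TMM-CPM at T9, against 4.31 and 2.35 TMM-CPM at T1 (-1.66 ± 0.69, adjusted p = 0.354). HSFA6B had 22 and 5 counts at T9, against 1 count at T1, a ratio of 23.5 with a 95% counting interval of 3.87 to 960.2 (adjusted p = 0.0596). Over all genes 1.60% rose and 0.315% fell, and the members' median was -0.25, against -0.02 over all genes. Of the regulators 0 of 16, of the targets 0 of 23 and of the other factors 1 of 8 were called, 1 higher and 0 lower.

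Across the 11 time points HSFA2, HSFA7A and HSFA7B varied most among the members, with spans of 11.80, 8.01 and 9.18 between the lowest and highest mean on the scale log2(TMM-CPM + 0.5), and HSFA1B and HSFA1D least, with 1.13 and 1.15. HSFA1E spanned 4.60 and HSFA3 4.23, HSFA1A 1.64, and the low HSFA6A and HSFA6B 2.21 and 1.34. HSFA6A was at most 3.02 TMM-CPM and HSFA6B at most 1.45 TMM-CPM in any plate. The time courses of HSFA2 and HSFA7B were alike (Pearson r of 0.97 over the 11 means of log2 levels), as were those of HSFA2 and HSFA7A (0.90), and those of HSFA1B and HSFA1D ran opposite ways (-0.82). Of 13110 genes outside the members with at least 10 TMM-CPM at some time point, those most like HSFA2 were the co-chaperone gene Hop3 (r = 0.995), HSP70T-2 (r = 0.994) and AT2G20560 (r = 0.994). Most like HSFA7B were AT5G03990 (r = 0.996), AT5G10695 (r = 0.996) and AT4G15420 (r = 0.994), and most like HSFA7A were AT4G27652 (r = 0.987), AT1G14200 (r = 0.984) and HSFB2B (r = 0.937). Most like HSFA3 were AT2G42270 (r = 0.974), CUL2 (r = 0.959) and AT4G26310 (r = 0.946), and most like HSFA1E were AT3G56200 (r = 0.916), AT5G35430 (r = 0.905) and AT1G02305 (r = 0.904). HSFA6A had OZF1 (r = 0.955), PRXR1 (r = 0.942) and the proline synthesis gene P5CS1 (r = 0.940). These r are descriptions over means that share libraries and heat.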

How the data were processed

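RNA of 43 tubes of seedling leaves from 22 plates was sequenced as stranded mRNA libraries, per the labels. The deposited counts are reads per locus. Per the submitters' processing notes the authors used HTSeq and SAMtools, TopHat2 (version 2.0.14) with Bowtie2 (version 2.1.0.0), and bcl2fastq (version 1.8.4), on the build TAIR10. Whether strand was used in counting is not stated: HSFA1B and HSFA3 overlap a neighbouring locus by 44 and 11 bases, and reads there cannot be told apart. The 5 summary lines of each table, 11.7% to 36.2% of a table in batch 1 and 14.8% to 45.3% in batch 2, were left out. A second deposited table holds the authors' log2 values of 18864 loci, without HSFA6B. It served as an alternative only, its normalization is not stated, and it has 1 further per-sample column that was left aside.

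Counts of the 2 tubes of a plate were summed, since tubes share a plate, and T3 has a plate with 1 tube. Plates are the replicates, so p-values measure the spread between plates of about 80 pooled seedlings. Time points were compared over all 22 plates in R 4.3.3 with edgeR 4.0.16 (quasi-likelihood test, TMM scaling, filterByExpr with a smallest count of 10, 10 residual degrees of freedom), with batch as a term. The batch number, which the labels give, pairs the plates. Alternatives were library size scaling, DESeq2 size factors, no filter, no batch term, the compared plates alone, each plate left out, each batch alone, DESeq2 1.42.0, limma 3.58.1 on the log2 values and, added after seeing the data, T5 and T6 without a tube. Libraries held 6355953 to 21304864 gene counts. Counting intervals and floors of 3 counts cover counting error only. The edgeR fit was tried on simulated counts with known changes at T6, as many up as down, in well-counted genes. These counts had the same spread for all genes and no batch effect. They do not bear on calls that turn on scaling or few counts. The members and gene lists were chosen with earlier results of these data known. All 10 members are described, the 4 genes of smallest p were eligible for naming in each list, and for members that span at least 2 log2 units the 3 genes with the highest Pearson r were named.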

Additional observations from a re-analysis of the deposited data

Results flagged for a closer look

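Among the 4 libraries of a time point, 1 tube stood far from the other 3 in 9 of 94 combinations of member and time point, where chance flags about 1 in 20 groups of 4 independent samples. These are 2 tubes of each of 2 plates, so they are not independent and that rate need not hold for them. At T5, tube 1 of the batch 2 plate was high for HSFA3 (8.05 TMM-CPM, others 1.45 to 2.46) and HSFA7B (1.70 TMM-CPM, others 0 to 0.181) and low for HSFA1B (9.31 TMM-CPM, others 14.6 to 15.5). At T6, tube 1 of the batch 2 plate was high for HSFA3 (4.73 TMM-CPM, others 0.863 to 1.02) and HSFA6A (3.27 TMM-CPM, others 0.256 to 0.767). In HSFA2, the factor known for sustained responses, tube 2 of the batch 1 plate of T1 had 4.16 TMM-CPM (108 counts), and the others 0.776 to 1.19 TMM-CPM. HSFA3 had 39.7 TMM-CPM in tube 1 of the batch 2 plate of T4, and 19.9 to 22.6 TMM-CPM in the others. HSFA1E was low in tube 1 of the batch 1 plate of T9, at 2.30 TMM-CPM, with the others at 2.92 to 2.98 TMM-CPM. HSFA1D was low in tube 2 of the batch 1 plate of T10, at 5.74 TMM-CPM, with the others at 6.93 to 7.12 TMM-CPM.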

How the results depend on the processing

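Each of the 39 calls of a member kept its sign when 1 plate was left out, 11 kept their call whichever plate it was and 6 lost it whichever plate it was. Each such fit leaves 1 plate at a time point, and most of these fits also called fewer of all genes. A lost call need not therefore be particular to a member. In fits of the compared plates alone 1 member was called for T4 against T3 (HSFA2), where 2.78% of all genes were higher and 3.06% lower, 1 for T6 against T9 (HSFA2; 2% and 1.75%), 2 for T7 against T10 (HSFA1E and HSFA7A; 5.24% and 4%) and 0 for T8 against T11, where 0% of all genes were called. Besides the 4 calls of T8 against T11, those fits lost 6 calls: HSFA1B (adjusted p = 0.0949) and HSFA1D (0.0603) for T4 against T9, HSFA1B (0.102) and HSFA1D (0.0767) for T10 against T4, and HSFA1A for T10 (0.0969) and T11 (0.141) against T9, by edgeR, and HSFA6B did not pass their filter for T4 against T9 and T10 against T4. DESeq2 called 1 for T5 against T9 (HSFA2), with 283 of all genes higher and 225 lower. It called 1 for T7 against T10 (HSFA1E), with 111 higher and 33 lower. For T7 against T10 library size scaling also called 1, with 17 of all genes higher and 0 lower. Without the filter 1 was called there, with 13 higher and 1 lower. For T8 against T6 limma on the authors' log2 values called 6, with 670 genes of that table higher and 1089 lower. The cause of these differences was not tested. With library size scaling HSFA1D stood at -1.010 for T3 against T2 and at -0.66 for T4 against T9, with the median of all genes at -1.29 and -2.02. Without the replicate block, the batch term, 2 members were called for T2 against T1 (278 of all 20980 genes higher and 61 lower) and 7 for T4 against T9 (3259 and 4207). Then 5 were called for T10 against T4 (2702 and 1959), 3 for T11 against T9 (227 and 251) and 3 for T8 against T11 (1691 and 1815). Leaving out the batch term changed no other count of members. The calls lost without it were those of HSFA7B at T2 (adjusted p = 0.0520), HSFA6B at T4 (0.234) and T10 (0.185), HSFA1A at T11 (0.0630) and HSFA7B at T8 (0.0677), by edgeR. Without tube 1 of the batch 2 plates of T5 and T6, added after seeing the data, 0 members were called for T5 against T9, T6 against T9 and the difference of responses. For T7 against T6 4 were called, with 631 of 20756 genes higher and 565 lower, and for T8 against T6 4, with 566 higher and 993 lower. Depth limits HSFA6A, HSFA6B and HSFA7B where they had few or 0 counts.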
